A study of Homo sapiens with 5 samples.

Results

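The RNAs described here are 2 classes of small nuclear RNA: the small Cajal body RNAs (scaRNAs, symbols starting with SCARNA) and the spliceosomal and related small nuclear RNAs (snRNAs, symbols starting with RNU or RNVU). They were picked by gene symbol, with earlier results of these data known. This gave 53 of the 25702 genes in the deposited table, 24 SCARNA genes and 29 RNU or RNVU genes. Of the 29, a RefSeq gene table classes 6 as pseudogenes and 2, RNU105B and RNU105C, as small nucleolar RNAs (snoRNAs). The libraries came from LTAD, a human prostate cancer cell line grown in phenol-red-free medium with charcoal-treated serum, which is depleted of androgens. RNA immunoprecipitation (RIP) with an antibody to PSF, the nuclear RNA-binding protein encoded by SFPQ, gave 2 libraries from cells treated with 5 µM of the small molecule No.10-3 (replicates 1 and 2) and 1 library from cells given the DMSO vehicle. The reference was input RNA, with 2 libraries, 1 of vehicle-treated and 1 of No.10-3-treated cells. The column names do not say which input is which, so they are called input a and input b and were pooled. No control immunoprecipitation is among these 5 libraries, and separate cultures are not stated for the No.10-3 pair, so p-values measure only the spread between these libraries, which may be technical.

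The snRNAs are the RNA cores of the spliceosome. In the major spliceosome U1 and U2 recognise the ends of an intron, and U4, U5 and U6 join as a tri-snRNP in which U4 holds U6 inactive until it is released. A minor spliceosome, which removes a rare class of introns, uses U11, U12, U4atac and U6atac in place of U1, U2, U4 and U6 and shares U5. The scaRNAs are mostly carried in introns of host genes and guide 2′-O-methylation (box C/D) or pseudouridylation (box H/ACA) of snRNAs in the Cajal body, a nuclear body where small ribonucleoproteins mature. Some, such as SCARNA10 (alias U85), combine both boxes.

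Library totals were 1519362, 3368252 and 2181770 counts in No.10-3 PSF-RIP replicate 1, replicate 2 and vehicle PSF-RIP, against 4010376 and 3083063 counts in inputs a and b. Values of the 3 PSF-RIP and 2 input libraries are given in that order throughout. The libraries differed in make-up. Nuclear protein-coding genes took 73.6%, 82.1% and 76.1% of counts in the PSF-RIP libraries, against 16.4% and 15.9% in the inputs. The 5 abundant noncoding RNAs RN7SK, RPPH1, RN7SL1, RN7SL2 and RMRP took 6.70%, 2.63% and 7.81% of PSF-RIP counts, against 51.7% and 55.0% of input counts. Replicate 2 of No.10-3 PSF-RIP stood apart from the other PSF-RIP libraries, with 0.259% of its counts on snoRNAs, against 1.69% in replicate 1 and 3.04% in vehicle PSF-RIP. The direction of a change over input therefore depended on the scaling. With TMM factors, which align the bulk of genes between libraries, the median log2 fold change of all 13321 tested genes was 0.08. With library totals the same median was 2.42. Results are given on the TMM scale (CPM computed on TMM-adjusted library totals, called scaled CPM). Where library totals turn the direction of a tested member's PSF-RIP over input value, this is stated. The luminal prostate marker KLK2 stood at 336, 509 and 893 CPM in PSF-RIP and 94.8 and 45.1 CPM in input, while the 3 basal markers summed to at most 1.19 CPM in any library. Of the 3 stromal markers, COL1A1 stood at 50.7, 50.2 and 75.2 CPM in PSF-RIP and 3.74 and 1.95 CPM in input, COL1A2 was at most 0.658 CPM and DCN was at 0. Of the 3 immune markers, PTPRC and CD3E were at 0 and CD68 stood at 5.27, 8.31 and 4.58 CPM in PSF-RIP and 0.748 and 0.649 CPM in input. The 3 neuroendocrine markers summed to 94.1, 103 and 152 CPM in PSF-RIP and 14.5 and 13.9 CPM in input, mostly ENO2, with CHGA at 0. All libraries came from the LTAD line, so these differences between PSF-RIP and input are no measure of cell make-up. In bulk libraries, fewer cells of a type and less RNA per cell cannot be told apart.

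A count in at least 1 library was found for 23 of the 24 SCARNA genes and 17 of the 29 RNU or RNVU genes. SCARNA13 had a count of 0 in all 5 libraries, as did RNU1-3, RNU1-4, RNVU1-7, RNU1-27P, RNU1-28P, RNU2-1, RNU5F-1, RNU6-15P, RNU6-21P, RNU6-42P, RNU105B and RNU105C. RNU1 and RNU6 genes exist as near-identical copies, and the treatment of reads that match several copies is not given in the sources used here. RNU2-1 is listed with a length of 37 nt, against 188 nt in RefSeq, and RNU5F-1 with 61 nt, against 118 nt. A count of 0 for these genes is thus no measure of U1, U2 or U6 in the cells. A mean of at least 1 CPM over the 5 libraries was required for testing, and 23 SCARNA genes and 12 RNU or RNVU genes met it. The 5 genes with counts that did not meet it are U1, U6 and U7 genes. RNU1-1 had counts of 0, 0 and 3 in PSF-RIP and 0 and 0 in input, and RNU1-2 had 0, 0 and 1 in PSF-RIP and 1 and 0 in input. RNU6-1 had 2, 1 and 1 in PSF-RIP and 5 and 4 in input, and RNU6-6P had 0, 0 and 1 in PSF-RIP and 2 and 3 in input. RNU7-1, the U7 RNA of histone pre-mRNA 3′ end processing, had 1, 4 and 6 in PSF-RIP and 0 and 1 in input. These counts are too low to order the libraries.

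As shares of all counts, snRNAs took 2.48% of No.10-3 PSF-RIP replicate 1 (95% Wilson interval 2.45 to 2.50%), 0.642% of replicate 2 (0.633 to 0.650%) and 2.12% of vehicle PSF-RIP (2.10 to 2.14%), against 2.24% of input a (2.23 to 2.26%) and 2.23% of input b (2.22 to 2.25%). The scaRNAs took 0.351% (0.342 to 0.361%), 0.0691% (0.0664 to 0.0720%) and 0.630% (0.620 to 0.641%) of the PSF-RIP libraries, against 0.266% (0.261 to 0.271%) and 0.290% (0.284 to 0.296%) of the inputs. Both classes were lowest in No.10-3 replicate 2, and the other PSF-RIP libraries lay on either side of the inputs for snRNAs and above them for scaRNAs. These intervals cover counting error only. Set against protein-coding counts in place of all counts, snRNAs came to 3.36%, 0.782% and 2.79% in PSF-RIP and 13.6% and 14.0% in input, and scaRNAs to 0.477%, 0.0841% and 0.828% in PSF-RIP and 1.62% and 1.82% in input. On that denominator every PSF-RIP library was below both inputs for both classes.

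The snRNAs did not move together between input and PSF-RIP. U4, U2-2, U4atac and U6atac were far lower in PSF-RIP than in input. The U5 variants, U11 and U12 were nearer to the bulk of genes than these in each PSF-RIP library, but least near to it in No.10-3 replicate 2. As log2 scaled CPM over pooled input (prior count of 2), they stood there at -3.56 (RNU5D-1) to -1.44 (RNU11). The median of all genes in that library was 0.09. In replicate 1 they stood at -0.67 to 0.40 and in vehicle PSF-RIP at -0.69 to -0.27. The contrast between the far lower snRNAs and the others shows in raw counts within a library, which need no scaling. U5 counts (RNU5A-1, RNU5B-1, RNU5D-1 and RNU5E-1 summed) were 4.42, 3.31 and 4.14 times U4 counts (RNU4-1 and RNU4-2) in PSF-RIP, against 0.265 and 0.246 times in input. The ratio averaged 3.95 ± 0.579 in PSF-RIP (SD, n = 3) and 0.256 ± 0.0133 in input (SD, n = 2), 15.5-fold apart, and the lowest PSF-RIP library was 12.5 times the highest input. The minor spliceosome divided in a like way. U11 and U12 counts together were 16.0, 35.2 and 14.4 times those of U4atac and U6atac in PSF-RIP, against 2.03 and 2.34 times in input, a mean of 21.9 ± 11.6 (SD, n = 3) against 2.18 ± 0.215 (SD, n = 2). U11 and U12 over U4 gave 0.834, 1.23 and 0.730 in PSF-RIP and 0.0482 and 0.0613 in input. These ratios were formed after the values were seen and carry no test, and 3 against 2 libraries could not give an exact one-sided permutation p below 0.1 for any 1 of them.

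**Figure D1:**
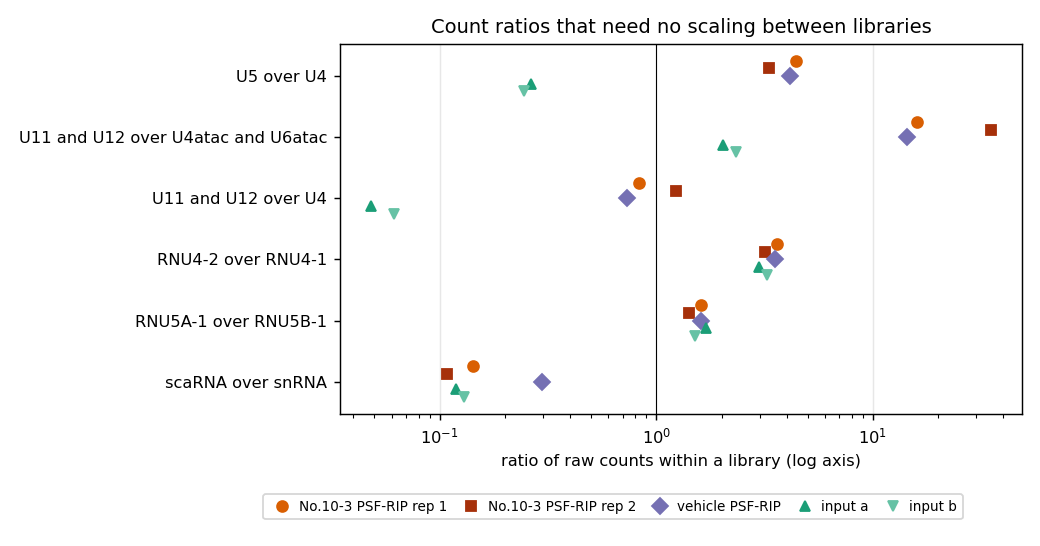
Ratios of raw counts within each library, on a log axis, for 6 pairs of snRNA or scaRNA groups; each symbol is 1 library (3 PSF-RIP, 2 input). U5 over U4 lies at 3.31 to 4.42 in PSF-RIP and at 0.246 to 0.265 in input, while RNU4-2 over RNU4-1 and RNU5A-1 over RNU5B-1 differ little between PSF-RIP and input.

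Ratios within a family differed less between PSF-RIP and input. RNU4-2 had 3.60, 3.17 and 3.52 times the counts of RNU4-1 in PSF-RIP, against 2.98 and 3.24 times in input, so the libraries overlapped. RNU5A-1 had 1.61, 1.41 and 1.62 times the counts of RNU5B-1 in PSF-RIP and 1.70 and 1.51 times in input, again overlapping. RNU5A-1 over RNU5E-1 was higher in PSF-RIP, at 2.86, 2.42 and 2.20, against 1.70 and 1.96 in input, a 1.36-fold difference of the means. RNU5A-1 over RNU5D-1 overlapped, at 15.1, 17.8 and 8.29 in PSF-RIP and 6.62 and 11.4 in input, a 1.53-fold difference of the means. The U4 genes are near-identical copies, as are the U5 variants in part, so reads could be assigned between them. RNU12 over RNU11, which are different snRNAs, was lower in PSF-RIP, at 1.03, 1.42 and 1.54, against 1.86 and 1.87 in input.

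Among the major snRNAs, RNU4-2, the main expressed U4 gene, had 4485, 2516 and 5631 counts in PSF-RIP, against 39582 and 31452 in input. Its scaled CPM averaged 1120 ± 675 in PSF-RIP (SD, n = 3) and 26691 ± 1744 in input (SD, n = 2), with every PSF-RIP library below both inputs. RNU4-1, the other U4 gene, had 1245, 794 and 1599 counts in PSF-RIP, against 13291 and 9708 in input. RNU2-2P, a U2 gene that RefSeq now names RNU2-2, had 1501, 3151 and 3495 counts in PSF-RIP, against 19141 and 13938 in input. All 3 genes were lower in every PSF-RIP library. In edgeR's quasi-likelihood test of PSF-RIP against input, log2 fold changes were -4.75 for RNU4-1 (SE 0.553, adjusted p = 2.77e-06), -4.57 for RNU4-2 (SE 0.596, adjusted p = 1.27e-05) and -4.33 for RNU2-2P (SE 0.501, adjusted p = 2.77e-06). RNU2-2P is listed with 138 nt, against 191 nt in RefSeq, and lies within WDR74, whose own log2 fold change was 1.23 (adjusted p = 0.0743, edgeR). RNU4-1 and RNU4-2 overlap SIRT4, which did not reach the level for testing. The strand setting of the counting is not stated, so reads of overlapping genes cannot be told apart.

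RNU5A-1, the most abundant U5 variant in these libraries, had 12435, 5029 and 13652 counts in PSF-RIP, against 6010 and 4487 in input. RNU5B-1 had 7711, 3555 and 8448 in PSF-RIP, against 3544 and 2963 in input, and RNU5E-1 had 4346, 2080 and 6192 against 3545 and 2287. RNU5D-1 had 826, 282 and 1646 counts in PSF-RIP, against 908 and 394 in input. U5 RNA sits at the centre of both spliceosomes, where it contacts the exon ends. The 4 U5 genes did not pass the edgeR quasi-likelihood test on the TMM scale, with log2 fold changes of -0.94 to -0.46 and adjusted p of 0.189 to 0.570, whereas by library totals all 4 were called higher, at 1.37 to 1.85, where 87.2% of all tested genes were. The choice of scaling thus turned their direction. On a scale that also divides by gene length (FPKM), RNU5A-1 stood at 69952, 12761 and 53481 FPKM in PSF-RIP, the highest snRNA in each, and at 12809 and 12439 FPKM in input, where RNU4-2 was highest at 69999 and 72351 FPKM. RNU4-2 stood at 20935, 5298 and 18304 FPKM in PSF-RIP.

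**Figure D2:**
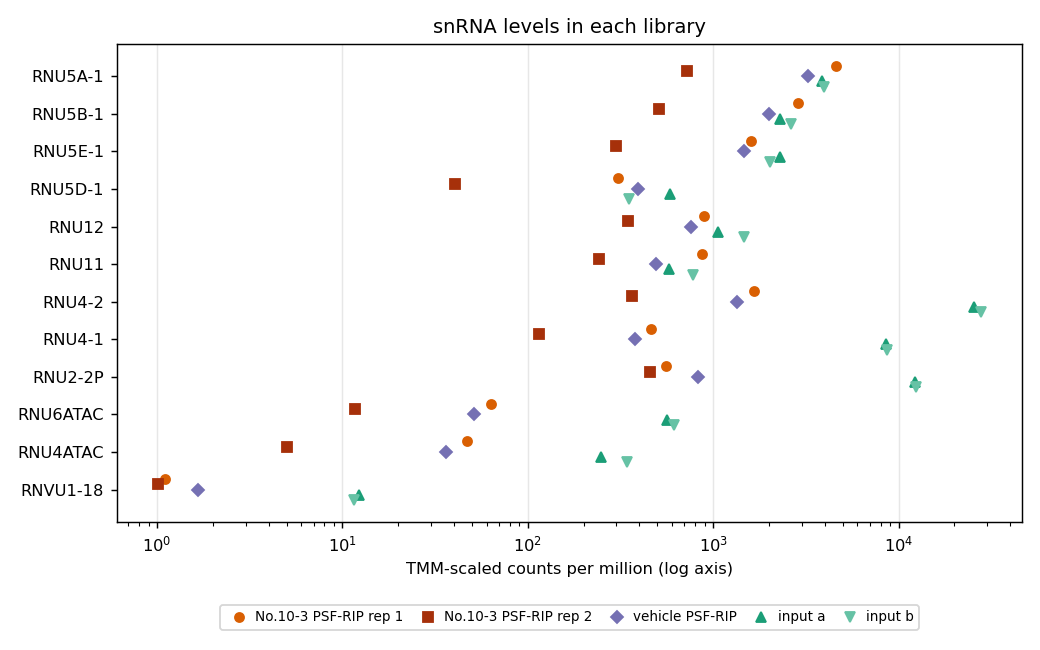
Scaled CPM (CPM on TMM-adjusted library totals, log axis) of the 12 tested snRNA genes in each of the 5 libraries, grouped by snRNA family. RNU4-1, RNU4-2, RNU2-2P, RNU6ATAC, RNU4ATAC and RNVU1-18 have all 3 PSF-RIP libraries below both inputs by a wide gap, and No.10-3 replicate 2 is the lowest library in all 12 rows.

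Of the minor snRNAs, RNU12 had 2421, 2398 and 3202 counts in PSF-RIP, against 1658 and 1643 in input. RNU11 had 2359, 1688 and 2074 in PSF-RIP, against 893 and 879 in input. Raw counts of both were above the inputs in every PSF-RIP library, while on the TMM scale their log2 fold changes were -0.92 for RNU12 and -0.34 for RNU11 with edgeR adjusted p of 0.130 and 0.622. By library totals they were called higher, at 1.41 and 1.98, as were 87.2% of all tested genes. RNU6ATAC, which pairs with U4atac as U6 does with U4, had 171, 81 and 214 counts in PSF-RIP, against 871 and 695 in input. RNU4ATAC, the gene mutated in a form of microcephalic dwarfism, had 127, 35 and 152 in PSF-RIP, against 385 and 385 in input. Both fell, with log2 fold changes of -3.82 (SE 0.492, adjusted p = 1.04e-05) and -3.35 (SE 0.528, adjusted p = 0.000136) in edgeR's quasi-likelihood test. RNVU1-18, a variant U1 gene, had 3, 7 and 7 counts in PSF-RIP and 19 and 13 in input, and its log2 fold change was -3.22 (SE 0.555, adjusted p = 0.000402, edgeR). By library totals the falls of RNU4ATAC and RNVU1-18 did not pass, at adjusted p of 0.0720 and 0.150 (edgeR).

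Over both classes, 21 of the 35 tested genes were called lower in PSF-RIP than in input and 0 were called higher (edgeR's quasi-likelihood test, adjusted p under 0.05), against 10.4% of all tested genes called lower and 10.0% called higher. The same test without adjustment gave 23 of the 35 members and 4779 of the 13321 genes at p under 0.05, and DESeq2 called 16 lower and 0 higher, where it called 9.54% of all genes lower and 8.20% higher. Of the 21, 15 were scaRNAs and 6 were snRNAs. The median log2 fold change was -1.75 over the 23 scaRNAs and -2.08 over the 12 snRNAs, against 0.08 over all tested genes. On the TMM scale 17 scaRNAs had all 3 PSF-RIP libraries below both inputs, 0 had them above and 6 overlapped, and 8 snRNAs were below and 4 overlapped, where 25.1% of all genes were below and 30.1% above. By library totals 5 scaRNAs were below, 1 was above and 17 overlapped. On that scale 6 snRNAs were below, 3 were above and 3 overlapped, and the shares of all genes are not given here.

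Library totals gave another division. On them, 9 members were called lower and 12 higher, where 0.368% of all tested genes were called lower and 87.2% higher. The 9 were among the 21, and were RNU4-1, RNU4-2, RNU2-2P, RNU6ATAC, SCARNA8, SCARNA11, SCARNA14, SCARNA16 and SCARNA23. They were called lower in each alternative that tested them (scaling, filter, tool and each library left out). Relative to the median of all genes, both scalings placed members alike: RNU4-1 stood at -4.84 log2 units from that median with TMM and at -4.86 with library totals, with 0.128% of tested genes lower than it under either. RNU5A-1 stood at -0.54 with TMM and at -0.57 with library totals, with 31.6% and 30.5% of genes lower. RNU11 had 35.7% and 34.8% of genes lower. RNU5E-1, RNU5D-1 and RNU12 stood further down, with 17.9%, 18.0% and 18.2% of genes lower with TMM. With library totals these shares were 17.0%, 17.0% and 17.8%. In this sense the U5 genes, U11 and U12 sat within the lower part of the bulk, with 17.9% to 35.7% of genes lower with TMM. U4, U2-2, U6atac and 5 scaRNAs sat within the lowest 0.308%.

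**Figure D3:**
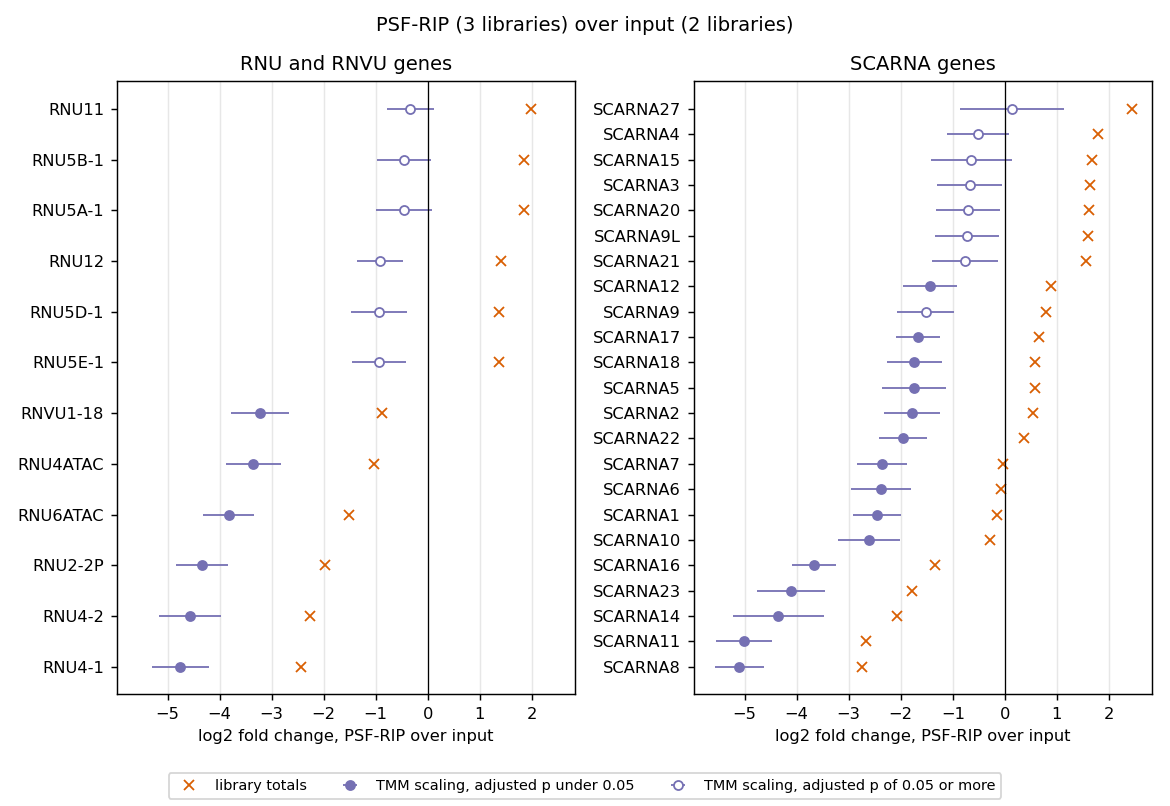
Log2 fold change of PSF-RIP (3 libraries) over input (2 libraries) for the 12 tested snRNA genes (left) and the 23 tested scaRNA genes (right), with bars of 1 SE; filled circles passed the edgeR test at an adjusted p under 0.05, open circles did not, and crosses give the value by library totals. The crosses lie to the right of the circles throughout. The 9 genes called lower on both scales have crosses at -2.75 (SCARNA8) to -1.34 (SCARNA16). RNU4ATAC and RNVU1-18, not called by library totals, have crosses at -1.04 and -0.88.

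The 5 scaRNAs with the lowest PSF-RIP over input values are all guides of pseudouridylation (box H/ACA). SCARNA8 (alias U92, a guide for U2) had 2, 10 and 4 counts in PSF-RIP, against 55 and 50 in input, and a log2 fold change of -5.10 (SE 0.476, adjusted p = 6.62e-08, edgeR). SCARNA11 had 6, 5 and 2 counts in PSF-RIP, against 36 and 49 in input, with -5.01 (SE 0.545, adjusted p = 1.02e-06, edgeR). SCARNA16, by far the most counted of the 5, had 279, 399 and 205 counts in PSF-RIP, against 1265 and 1085 in input, and -3.67 (SE 0.422, adjusted p = 2.48e-06, edgeR). It is the scaRNA that varied least among the PSF-RIP libraries of those with over 100 counts in each, with a scaled CPM of 69.8 ± 29.1 in PSF-RIP (SD, n = 3) and 888 ± 106 in input (SD, n = 2). SCARNA23 had 3, 1 and 5 counts in PSF-RIP and 21 and 13 in input (log2 fold change -4.11), and SCARNA14 had 2, 0 and 2 in PSF-RIP and 6 and 12 in input (-4.35). Their low counts make the size of those 2 changes imprecise.

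The 9 scaRNAs that carry box C/D or both boxes (266 to 421 nt listed length) held most of the scaRNA counts. SCARNA10, which guides both kinds of modification on U5, had 903, 306 and 2528 counts in PSF-RIP, against 2796 and 2447 in input. SCARNA2, a box C/D guide for U2, had 691, 322 and 2021 in PSF-RIP, against 1310 and 1076 in input. SCARNA9, which holds a tandem of box C/D guides for U2, had 551, 204 and 1516 in PSF-RIP, against 829 and 681 in input. For these 3 RNAs the vehicle PSF-RIP library had the most counts of the PSF-RIP libraries and No.10-3 replicate 2 the fewest. The same order held for SCARNA7, a guide for U1 (447, 242 and 807 in PSF-RIP, 923 and 837 in input), and for SCARNA5 (269, 66 and 987 in PSF-RIP, 588 and 441 in input). It also held for SCARNA12 (325, 134 and 774 in PSF-RIP, 448 and 333 in input) and SCARNA6 (145, 40 and 428 in PSF-RIP, 437 and 314 in input). SCARNA17, a guide for U4, had 158, 150 and 392 counts in PSF-RIP, against 284 and 207 in input. SCARNA9L, a copy of SCARNA9 with which it may share reads, had 17, 10 and 61 in PSF-RIP, against 17 and 15 in input.

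Of these 9, 7 were called lower in PSF-RIP than in input on the TMM scale, where 10.4% of all genes were, with a median log2 fold change of -1.75, and 0 were called lower by library totals, where 0.368% of all genes were. SCARNA10 had the lowest value, -2.60 (SE 0.592, adjusted p = 0.00434, edgeR), and SCARNA12 was the nearest inside the threshold (-1.44, adjusted p = 0.0481, edgeR). SCARNA9 was the nearest outside it (-1.52, adjusted p = 0.0503, edgeR), and SCARNA9L did not pass (-0.73, adjusted p = 0.408, edgeR). By library totals the signs of SCARNA2, SCARNA5, SCARNA9, SCARNA9L, SCARNA12 and SCARNA17 turned positive, between 0.54 and 1.59. Of the 7, DESeq2 called SCARNA7 and SCARNA17 and did not call SCARNA2, SCARNA5, SCARNA6, SCARNA10 or SCARNA12.

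The other H/ACA scaRNAs were nearer to the bulk of genes than the H/ACA scaRNAs with the lowest values described above. SCARNA21 had 998, 211 and 3311 counts in PSF-RIP, against 1017 and 776 in input, and was the most counted scaRNA of vehicle PSF-RIP and of No.10-3 replicate 1, with 24.1% and 18.7% of their scaRNA counts. In the inputs that place was held by SCARNA10, with 26.2% and 27.4%, and in No.10-3 replicate 2 by SCARNA16, with 17.1%. Per gene length, SCARNA21 stood at 4760, 454 and 10997 FPKM in PSF-RIP and 1838 and 1824 FPKM in input, and SCARNA10 at 1801, 275 and 3511 FPKM in PSF-RIP and 2113 and 2405 FPKM in input. The log2 fold change of SCARNA21 on the TMM scale was -0.76 (adjusted p = 0.403, edgeR) and turned to 1.56 by library totals.

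SCARNA1 had 232, 104 and 183 counts in PSF-RIP and 375 and 315 in input, and was called lower at -2.45 (adjusted p = 0.00105, edgeR). SCARNA22, an orphan guide carried by NSD2, had 106, 63 and 200 in PSF-RIP and 151 and 168 in input (-1.96, adjusted p = 0.00504, edgeR). SCARNA18 had 39, 15 and 27 in PSF-RIP and 36 and 28 in input (-1.74, adjusted p = 0.0221, edgeR). By library totals none of these 3 was called, with log2 fold changes of -0.15 for SCARNA1, 0.37 for SCARNA22 and 0.58 for SCARNA18, so the sign turned for the last 2. SCARNA4 had 109, 17 and 172 counts in PSF-RIP, against 58 and 46 in input, a log2 fold change of -0.51 on the TMM scale (adjusted p = 0.561, edgeR) and of 1.79 by library totals (adjusted p = 0.0214, edgeR). SCARNA3, SCARNA15, SCARNA20 and SCARNA27 had at most 48 counts in any library and log2 fold changes of -0.70 to 0.14 on the TMM scale, and passed no test there, while by library totals all 4 were called higher, at 1.62 to 2.44, as were 87.2% of all tested genes.

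**Figure D4:**
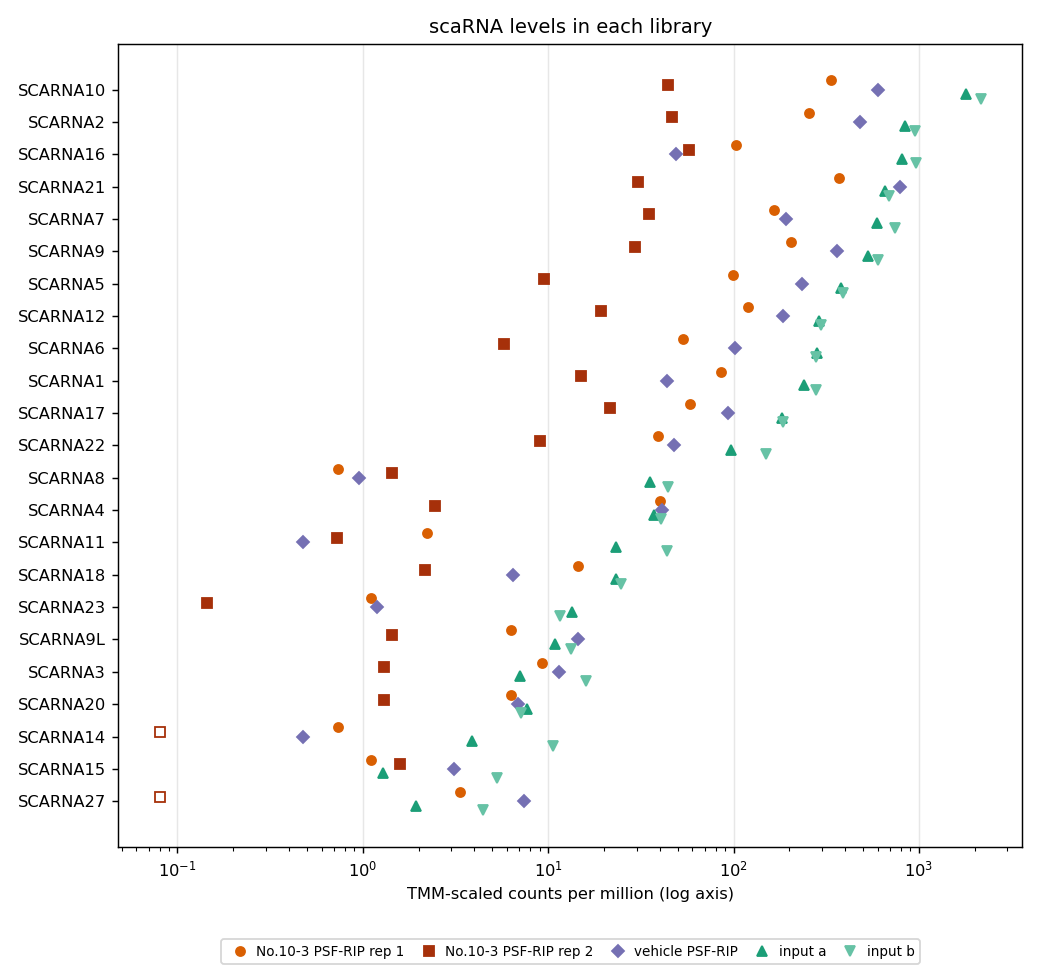
Scaled CPM (log axis) of the 23 tested scaRNA genes in each of the 5 libraries, ordered by level, with open squares at the left edge for the 2 genes with a count of 0 in No.10-3 PSF-RIP replicate 2. Replicate 2 lies left of the other PSF-RIP libraries for most genes, and SCARNA16 and SCARNA11 are among the genes where the vehicle library is the lowest of the PSF-RIP libraries.

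Most scaRNAs lie within host genes, whose own values over input were mostly higher than those of the scaRNA. By the RefSeq gene table, 20 tested scaRNAs lie within 19 tested protein-coding genes. The scaRNA had the lower log2 fold change in 17 of these 20 pairs. The hosts had a median of 0.26 (range -2.30 to 1.56), with 3 called lower and 2 called higher, near the 10.4% and 10.0% of all genes. SCARNA11 lies within CHD4, which was called higher at 1.56 (adjusted p = 0.00637, edgeR), and SCARNA21 within CHD3, called higher at 1.30 (adjusted p = 0.0207, edgeR). Both genes encode chromatin remodelling ATPases. SCARNA10 lies within NCAPD2, a condensin subunit, at 0.99 (adjusted p = 0.0543, edgeR), SCARNA5 and SCARNA6 lie within ATG16L1, an autophagy gene, at 0.43, and SCARNA8 lies within HAUS6 at -0.89. SCARNA16 lies within SEC14L1, at 0.42, and within the long noncoding host SNHG20, at -0.59. The 3 pairs in which the scaRNA was the higher one were SCARNA18 in TMEM167A (-2.30), SCARNA27 in EEF1E1 (-1.51) and SCARNA9L in EIF1AX (-1.35), whose hosts were the 3 called lower. RNU4ATAC lies within CLASP1, at 0.31, and SCARNA13, with no counts, within SNHG10, at -1.53. By library totals every host named here had a positive value, between 0.07 and 3.90.

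The snoRNAs are built like scaRNAs. Of the 85 tested H/ACA snoRNAs (SNORA symbols) 24 were called lower and 0 higher in PSF-RIP against input, with a median log2 fold change of -1.03, and of the 115 tested C/D snoRNAs (SNORD) 15 were called lower and 0 higher, with a median of -0.59, where 10.4% of all genes were called lower and 10.0% higher. The SNORD count is near that share. By library totals the medians were 1.29 for SNORA and 1.71 for SNORD, against 0.58 for scaRNAs and 0.25 for snRNAs. Length moved with the change as well. Among genes that are not members, the 207 tested genes listed below 200 nt had a median log2 fold change of -0.68. The 129 listed from 200 nt to below 500 nt, the range of the scaRNAs with box C/D or both boxes, had -1.06. Only SCARNA, RNU and RNVU genes were left out there, so SNORA and SNORD genes of these lengths are included. These medians are thus not separate from the snoRNA values above. They are on the TMM scale and were not worked out by library totals. Within the snRNAs, the 6 called genes were listed at 125, 130, 138, 141, 144 and 164 nt and the 6 uncalled genes at 100, 117, 117, 119, 135 and 149 nt, so the U5 genes were shorter than every called one. The part of length in these changes was not tested.

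Messenger RNAs of the proteins that work with these RNAs were called in both directions, where 10.0% of all genes were called higher and 10.4% lower. Of 18 tested genes for Cajal body and small ribonucleoprotein components, ELL (1.59), part of a complex that elongates snRNA transcripts, and SART3 (1.16), a recycling factor of U4 and U6, were called higher and NOP10 (-1.32), an H/ACA core protein, was called lower, with a median log2 fold change of 0.06. Of 37 tested snRNP protein genes, 3 were called higher, SNRPA1 (2.10), SNRNP70 (1.51) and SNRNP200 (1.39), the U5 helicase that unwinds U4 from U6. In the same list 9 were called lower, among them LSM5 (-2.33), SNRPG (-2.19), ZCRB1 (-2.11) and LSM3 (-2.07), and the median was -0.52. LSM3 and LSM5 are in the ring bound to U6, SNRPG in the Sm ring of the other snRNAs, and ZCRB1 in the U11 and U12 particle. Of 41 tested snRNA biogenesis genes 6 were called higher, among them the Integrator subunit INTS1 (2.22), WDR77 (1.68), GEMIN4 (1.60) and the U6 uridylyltransferase TUT1 (1.40), and 2 lower, SNAPC5 (-1.84) and the U6 exonuclease USB1 (-1.12), with a median of 0.12. By library totals 0 genes of these 3 lists were called lower and the 3 medians were 1.80 to 2.47, so each fall named here turned positive.

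Each treatment was also set against the pooled input in a model with 3 groups. No.10-3 PSF-RIP (2 libraries) had 24 of 35 members called lower than input and 0 higher, 18 scaRNAs and 6 snRNAs, where 6.51% of all genes were called lower and 5.03% higher. Vehicle PSF-RIP (1 library, assumed to vary like the others) had 13 called lower and 0 higher, 7 scaRNAs and 6 snRNAs, where 10.4% of all genes were called lower and 10.1% higher. Without No.10-3 replicate 1 or replicate 2 in the model the vehicle count rose. Those fits take their spread from the inputs alone, and the share of all genes called in them was not worked out. The rise is thus no result about the members. With all libraries, the 6 snRNAs were RNU4-1, RNU4-2, RNU2-2P, RNU6ATAC, RNU4ATAC and RNVU1-18 for both No.10-3 and vehicle. RNU4-1 had -4.90 with No.10-3 (adjusted p = 6.37e-07, edgeR) and -4.50 with vehicle (adjusted p = 0.000611, edgeR), and RNU5A-1 had -0.56 with No.10-3 and -0.27 with vehicle. By library totals RNU5A-1 turned positive, at 1.71 with No.10-3 and 2.08 with vehicle. These comparisons share the same input libraries. DESeq2 called 9 members lower with No.10-3 and 7 with vehicle, where it called 4.32% and 7.40% of all genes lower. By library totals 10 members were called lower and 5 higher with No.10-3, where 0.398% of all genes were called lower and 86.5% higher. With vehicle 6 were called lower and 18 higher, where 0.375% of all genes were called lower and 73.0% higher.

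Between No.10-3 and vehicle PSF-RIP, no member was called: 0 of 35 by edgeR's quasi-likelihood test and 0 by DESeq2, where 0% of all 13321 genes were called by either. The smallest adjusted p of a member was 0.782 with edgeR, and 10 members and 847 of all genes had an unadjusted p under 0.05, against 2 members and 273 genes with DESeq2. The treated libraries did not vary alike. Without replicate 1, 27 members (16 scaRNAs and 11 snRNAs) were called lower in No.10-3 than in vehicle PSF-RIP, where 2.79% of all genes were called lower, in a fit that takes its spread from the inputs alone. Without replicate 2, 0 members were called, where 0.0456% of all genes were called lower. With all libraries and no filter on low counts, SCARNA5 was called lower, where 0.0529% of all genes were. Members were thus called lower in No.10-3 PSF-RIP only in fits that held replicate 2, the library with few snoRNA counts.

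Shown library by library, as log2 scaled CPM over pooled input with a prior count of 2, scaRNAs had a median of -1.59 in No.10-3 replicate 1, -3.92 in replicate 2 and -0.97 in vehicle PSF-RIP. The snRNAs had -1.64, -3.31 and -1.61 in the same order. By library totals these scaRNA medians became 0.59, -1.64 and 1.37 and the snRNA medians 0.59, -1.03 and 0.61. Compared with vehicle, replicate 1 was lower for 18 of 23 scaRNAs (median difference -0.29) and 3 of 12 snRNAs (0.29). Replicate 2 was lower for 20 of 23 scaRNAs (-2.45) and all 12 snRNAs (-1.93). All genes had median differences of 0.00 and 0.02, and the SNORA and SNORD genes had -0.50 and -0.68 in replicate 1 and -3.08 and -1.62 in replicate 2. The fall below vehicle in replicate 2 was thus common to the small RNAs of all 4 classes.

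Among the scaRNAs, the 9 of box C/D or both boxes were lower than vehicle in both treated libraries, by a median of -0.85 in replicate 1 (range -1.24 to -0.22) and -3.36 in replicate 2 (range -4.56 to -2.09). The 13 tested H/ACA scaRNAs had medians of -0.07 and -1.41, with 8 and 10 of them lower. The largest falls in replicate 2 were those of SCARNA21 (-4.67, with -1.10 in replicate 1) and SCARNA5 (-4.56, with -1.24 in replicate 1). SCARNA16 and SCARNA11 were above vehicle in both treated libraries, SCARNA16 by 1.07 and 0.24 and SCARNA11 by 1.49 and 0.33. SCARNA11 had at most 6 counts in a PSF-RIP library. In raw counts SCARNA21 was 3.58, 0.529 and 16.2 times SCARNA16 in PSF-RIP, against 0.804 and 0.715 times in input. The sum of scaRNA counts was 0.142, 0.108 and 0.297 times that of snRNAs in PSF-RIP, against 0.119 and 0.130 in input, so vehicle PSF-RIP was the library richest in scaRNAs relative to snRNAs.

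**Figure D5:**
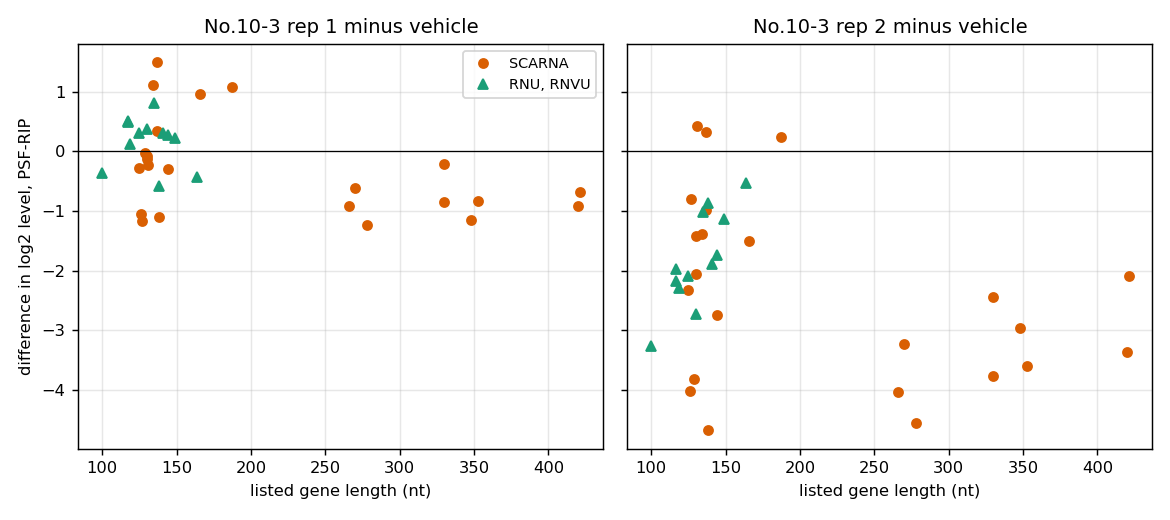
Difference in log2 level (scaled CPM over pooled input, prior count of 2) of No.10-3 PSF-RIP replicate 1 (left) and replicate 2 (right) from vehicle PSF-RIP, for each tested scaRNA (circles) and snRNA (triangles), against listed gene length in nt. The 9 scaRNAs of 266 nt or more lie below 0 in both panels, and in the right panel all 12 snRNAs do too.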

How the data were processed

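The authors deposited 1 table of whole-number read counts, listed gene lengths and FPKM values per gene and library. The deposited counts were taken as raw counts. The deposited FPKM values of the PSF-RIP libraries equal count over length and library total (largest relative difference 4.81e-08), and levels compared between genes were computed by that formula from the counts of every library. A further 2 FPKM columns were not used. Per the submitters' processing notes, TopHat2 2.1.0, Bowtie2 2.2.6 and Bowtie were used with hg19. For the counting tool, the strand setting and the handling of reads with several matches, the entry is: not given in the sources used here. Libraries were made with a stranded kit, per the labels' protocols. The 2 columns named for No.10-3 without PSF were assigned to PSF-RIP by elimination.

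The 13321 genes whose mean over the 5 libraries reached 1 CPM were tested with edgeR 4.0.16 (R 4.3.3): TMM factors, the quasi-likelihood test, Benjamini-Hochberg adjustment over all of them and a threshold of 0.05. PSF-RIP was set against input in a 2-group fit, and the treatments were compared in a 3-group fit. The SE is the size of the log2 fold change over the square root of F. Alternatives were library totals, other size factors, protein-coding scaling, no or a stricter filter (mean CPM of 5), DESeq2 1.42.0, another prior count, single inputs and each library left out. On simulated counts of the PSF-RIP against input comparison (13321 genes), 64 of 100 genes changed by a log2 of 2 were recovered, 96 of 100 changed by 4, and 6 unchanged genes were called. The simulation raised and lowered equal numbers of genes and did not copy the difference in make-up between PSF-RIP and input. It therefore cannot bear on the choice of scaling. All 53 members matched the RefSeq table by Entrez ID, which supplied host genes and lengths only. Values by library were named for the 15 most counted members of each class and every other member past the threshold. Hosts of named members were named as well. From each protein list genes past the threshold in both directions were named, not always those with the largest change. In the snRNP list LSM2 (-1.66) and SNRPD2 (-1.51) were called lower but not named, while SNRNP200 (1.39) was. The members and lists were chosen with earlier results of these data known. Box types and families were assigned from textbook knowledge, and SCARNA27 was left without a box type.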

Additional observations from a re-analysis of the deposited data

How the results depend on the processing

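Library totals decided most directions. With them the members called lower in PSF-RIP over input numbered 9 and those called higher 12. For No.10-3 PSF-RIP over input the count was 15 (10 lower, 5 higher) and for vehicle PSF-RIP over input 24 (6 lower, 18 higher). DESeq2 called 9 members, all lower, with No.10-3 and 7, all lower, with vehicle. Without a filter 1 member, SCARNA5, was called lower in No.10-3 than in vehicle PSF-RIP. Leaving out 1 library at a time gave 17 to 23 members called, all lower, in PSF-RIP over input, 20 to 34 in No.10-3 over input, 10 to 21 in vehicle over input and 0 to 27 in No.10-3 over vehicle, with 0 called higher in each. Without No.10-3 replicate 1 or replicate 2, each treatment had 1 PSF-RIP library, and the 3-group fits took their spread from the inputs alone. The largest count of each treatment comparison came from these fits. For the left-out fits over input, the share of all genes called was not worked out. The ranges over input are thus no result about the members. The mean snRNA share in PSF-RIP was 0.781 times that in input over all counts and 0.167 times over protein-coding counts. The scaRNA share was 1.26 times over all counts and 0.269 times over protein-coding counts, which turns its direction. By library totals the median log2 over pooled input in No.10-3 replicate 1, replicate 2 and vehicle became 0.59, -1.64 and 1.37 for scaRNAs and 0.59, -1.03 and 0.61 for snRNAs.

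Log2 fold changes that turned positive by library totals were SCARNA2 0.54, SCARNA3 1.65, SCARNA4 1.79, SCARNA5 0.58, SCARNA9 0.80, SCARNA9L 1.59, SCARNA12 0.88, SCARNA15 1.68, SCARNA17 0.66, SCARNA18 0.58, SCARNA20 1.62, SCARNA21 1.56, SCARNA22 0.37, RNU5A-1 1.85, RNU5B-1 1.85, RNU5D-1 1.38, RNU5E-1 1.37, RNU11 1.98 and RNU12 1.41. With 1 library left out, SCARNA4 ranged from -0.96 (without vehicle PSF-RIP) to 0.047 (without No.10-3 replicate 2), SCARNA15 from -1.42 (without input a) to 0.60 (without input b) and SCARNA27 from -1.36 (without vehicle PSF-RIP) to 0.85 (without No.10-3 replicate 2), with -0.39 without input a. SCARNA27 was -0.045 in the 3-group fit. Beyond these and library totals, no member's sign turned.

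Counts were low for U7 and for the scaRNAs with under 20 counts in PSF-RIP, which limits the precision there. The cause of the near-0 U1 and U6 counts was not tested. Without a control immunoprecipitation, binding to PSF cannot be told apart from RNA retained on the beads. No paired analysis was possible because the labels number only the second No.10-3 PSF-RIP sample and the input columns cannot be assigned to a treatment.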
